A study of Drosophila melanogaster with 6 samples.

Results

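Genes of the Polycomb group, the Trithorax group and the ATP-dependent chromatin remodellers were examined in RNA-seq libraries of S2R+ cells depleted of Hakai. A list of 40 genes was taken by their FlyBase symbols, and 39 of them were matched to one of the 17559 gene identifiers in the count files. The identifier that the annotation gives for Ino80, the ATPase of the INO80 remodeller, is not among these identifiers, so that no value was assigned to it. In the annotation, lid is listed as Kdm5 and calypso as caly. The study comprised 3 libraries of Hakai KD and 3 of control KD, made from poly(A) RNA. S2R+ is a Drosophila line of embryonic origin with hemocyte-like features, and the cultures of both groups received dsRNA, against Hakai or against the bacterial LacZ gene. According to the labels, 10 μg of dsRNA was applied in 3 treatments over 6 days to cells of passages 8 to 10. The labels name no other allele or agent, so that Hakai KD was compared with control KD only.

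Polycomb and Trithorax proteins were found in flies as keepers of the silent and the active state of developmental genes. Polycomb repressive complex 2 (PRC2) methylates lysine 27 of histone H3, PRC1 reads this mark and ubiquitylates histone H2A, PhoRC brings the DNA-binding subunit and PR-DUB removes the ubiquitin again. Trithorax-group enzymes methylate other lysines of histone H3, and several members of this group are subunits of SWI/SNF, a remodeller that moves and evicts nucleosomes. Other remodellers with related ATPases space nucleosomes, exchange histones or act within deacetylase complexes. Hakai is a RING-type subunit of the complex that supports m6A methylation of mRNA, and the comparison asks how far the transcripts of the chromatin machinery differ when it is depleted.

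The libraries held 16041353 to 17288912 counts in Hakai KD and 16043011 to 17259281 counts in control KD. Hakai itself (FBgn0032812, 2L) had 68.1, 72.6 and 77.8 normalized counts in Hakai KD, against 296, 329 and 298 in control KD, a log2 fold change of -2.08 ± 0.094 (SE, adjusted p = 1.8e-07 in edgeR's quasi-likelihood test). Normalized counts are counts put on a common, TMM-scaled library size, and so give relative abundance. Control KD replicate 1 stood apart from its group, with a chi-square per degree of freedom of 12.1 to 15.7 against the other control libraries. Control KD replicates 2 and 3 had 2.35 against each other and only 9.94 to 11.5 against the Hakai KD libraries. Pairs of Hakai KD libraries had 5.15 to 8.6. Control KD replicate 1 thus lay farther from its own group than the other control libraries lay from Hakai KD. Some results that depend on this library are also given without it. Of the markers set for the hemocyte-like line, srp averaged 4007 normalized counts in Hakai KD and 4132 in control KD, crq averaged 6980 in Hakai KD and 7174 in control KD, and NimC1 had at most 6.31 in Hakai KD and 5.76 in control KD. Among the 7 of these 8 markers that were tested, 3 were called higher in Hakai KD and 0 lower, beside 7.58% higher and 7.72% lower of all genes tested. Pxn averaged 3186 normalized counts in Hakai KD and 2780 in control KD, Hml 286 in Hakai KD and 193 in control KD, and He 33.2 in Hakai KD and 20.1 in control KD. The call of He (adjusted p = 0.0456 in edgeR's quasi-likelihood test) was lost in each of the 6 leave-one-out fits and in DESeq2 (adjusted p = 0.22). The summed level of the list was 15486 to 15825 in Hakai KD and 15261 to 15487 in control KD. The listed neuronal markers summed to 332 to 481 in Hakai KD and 420 to 478 in control KD, mostly elav, and the germline markers to 3688 to 3730 in Hakai KD and 3774 to 4073 in control KD, mostly aub. The muscle markers summed to 6.1 to 9.46 in Hakai KD and 2.88 to 8.66 in control KD, and the fat body markers to 26.3 to 41.7 in Hakai KD and 35.5 to 53.9 in control KD. The part of cell composition in the changes below was not tested, and in bulk RNA fewer cells of a type and less RNA per cell cannot be told apart.

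The transcripts of the chromatin machinery differed little between the groups, and at an adjusted p under 0.05 they passed the test about as often as all genes tested. Of the 20 Trithorax-group, SWI/SNF, remodeller and lid genes 5 were called, and of the 19 Polycomb-group genes 1, beside 15.3% of all genes tested. This difference was not itself tested and turned on the processing. With the trend of counts with gene length removed, 9 of the 39 genes were called. Among them were Pcl, Sce, pho and Sfmbt of the Polycomb group (adjusted p = 0.018, 0.034, 0.044 and 0.036 in edgeR's quasi-likelihood test). The transcript of trx was 1.23-fold higher in Hakai KD, that of osa 1.15-fold, that of Mi-2 1.12-fold and that of Pcl 1.10-fold, whereas Bap170 and Chd1 were lower, at 90.6% and 91.7% of the control level. All 39 genes passed the expression filter and were tested together with the other genes, 7811 in all. At 0.05 on the adjusted p-value, edgeR's quasi-likelihood test called 6 of the 39 genes (15.4%), beside 15.3% of all genes tested, so that the share of called genes was that of the background. An unadjusted p under 0.05 in this test was found for 16 of the 39 (41%), beside 29.8% of all genes tested. The split was 4 higher (10.3%, background 7.58%) and 2 lower (5.13%, background 7.72%). The number lower was 1 without Hakai KD replicate 2 and 4 without control KD replicate 3. In 20 of the 39 genes (51.3%) the libraries of Hakai KD and control KD did not overlap, which was so in 34.9% of all genes tested. The median log2 fold change of the 39 genes was -0.0013, beside 5.8e-04 over all genes, and the median absolute log2 fold change was 0.069, beside 0.084. Without control KD replicate 1 the median log2 fold change of the 39 genes was 0.031. Counts were high enough for small differences to be measured: the lowest raw count of any of these genes in any library was 281, and the standard errors of the log2 fold changes lay between 0.028 and 0.082. With DESeq2, 6 of the 39 genes were called, with kis in place of Pcl.

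**Figure D1:**
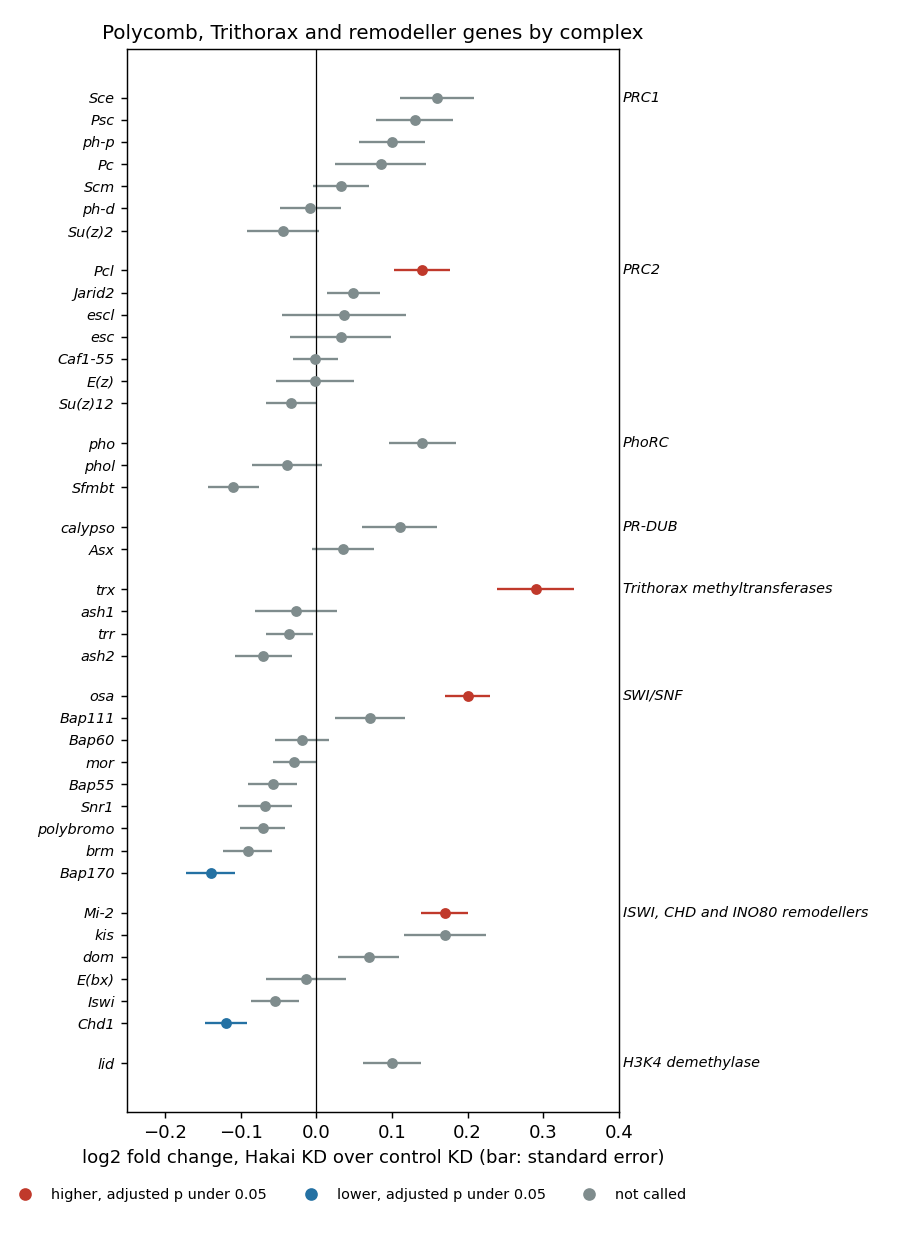
Log2 fold change of Hakai KD over control KD for each of the 39 genes with a value, grouped by complex and ordered within it; bars are standard errors of edgeR's quasi-likelihood test and colours mark the 4 genes called higher and the 2 called lower. The points lie between -0.14 (Bap170) and 0.29 (trx).

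Transcript levels were compared between genes as RPKM, that is normalized counts per kilobase of exon scaled to library size, taken over the union of all annotated exons. Of the PRC1 genes, all but Sce and Scm were among the least abundant, next to Asx, ash1 and trx (11.5 RPKM in Hakai KD and 9.36 in control KD). The RPKM of Pc, ph-p, ph-d, Psc and Su(z)2 lay between 7.74 and 9.12 in Hakai KD and between 7.2 and 8.44 in control KD, whereas Sce had 23.8 ± 0.358 in Hakai KD and 21.3 ± 0.974 in control KD (SD, n = 3 each). SWI/SNF transcripts ranged from 31.6 to 96.1 in Hakai KD and from 33.2 to 98 in control KD, with mor, the scaffold of the complex, at the top. The most abundant transcripts of the list were Iswi, with 146 ± 1.95 RPKM in Hakai KD and 152 ± 3.9 in control KD, and Caf1-55, a histone-binding subunit shared by PRC2 and other complexes, with 149 ± 2.36 in Hakai KD and 149 ± 2.97 in control KD (SD, n = 3 each). In control KD Iswi and Caf1-55 did not differ from each other beyond the spread of their libraries, and neither did Pc, Psc and Su(z)2. Since alternative exons count in full, the RPKM of long genes with many isoforms can be understated. Among the classes with several genes, the order of the median levels was the same in both groups.

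**Figure D2:**
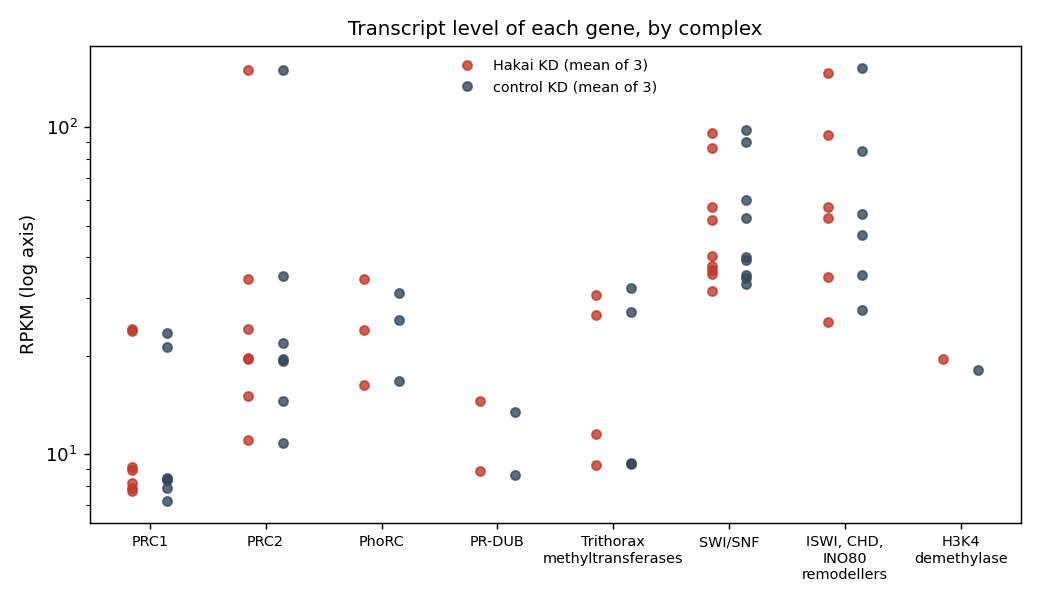
Mean RPKM of each gene (log axis) in Hakai KD and in control KD (3 libraries each), by complex. The median was 8.96 RPKM in Hakai KD and 8.41 in control KD for PRC1, and 40.3 in Hakai KD and 40.2 in control KD for SWI/SNF.

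Among the Trithorax-group methyltransferases, trx was the only one of 4 genes that was called. This gene encodes the founding H3 lysine 4 methyltransferase of the group and lies on the minus strand of 3R from 14263358 to 14286903 (FBgn0003862, coordinates of BDGP6.54). It had 2698, 2639 and 2739 normalized counts in Hakai KD, against 2406, 2137 and 2044 in control KD. Every Hakai KD library lay above every control library, and control KD replicate 1 was the highest of its group. The log2 fold change was 0.29 (standard error 0.051, adjusted p = 0.0033 in edgeR's quasi-likelihood test), the largest of the 39 genes, and trx was the only one of them that changed at least 1.2-fold. Without control KD replicate 1 it was 0.36 (adjusted p = 1.2e-04), and with the trend of counts with gene length removed from each library it was 0.22 (adjusted p = 0.021, both in the same edgeR test). The related enzyme trr had a log2 fold change of -0.036, ash1, which methylates lysine 36, -0.027, and ash2, a subunit shared by the lysine 4 methyltransferase complexes, -0.07, with adjusted p-values of 0.46, 0.79 and 0.24 in the same test. The exons of trx overlap 570 bp of an antisense RNA, asRNA:CR46020, with a mean of 1.03 counts in Hakai KD and 0.986 in control KD.

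SWI/SNF occurs in a pair of forms in flies, BAP, which is defined by Osa, and PBAP, which is defined by Bap170 and Polybromo. The transcript of osa was higher in Hakai KD, that of Bap170 was lower, and that of polybromo did not pass the test. The gene osa (FBgn0261885; 3R, 17687818 to 17718350), which encodes an ARID-domain protein, had 7306, 7178 and 7171 normalized counts in Hakai KD, against 6332, 6425 and 6150 in control KD. The libraries of either group lay close together and the groups were far apart, with a log2 fold change of 0.20 ± 0.030 (SE, adjusted p = 0.0016 in edgeR's quasi-likelihood test), which was 0.14 (adjusted p = 0.019) with the length trend removed. Bap170 (FBgn0042085; 2R, 6636512 to 6642358), the ARID subunit of PBAP, had 3169, 3221 and 3057 normalized counts in Hakai KD, against 3560, 3408 and 3463 in control KD. All Hakai KD libraries lay below all control libraries, with a log2 fold change of -0.14 ± 0.032 (SE, adjusted p = 0.012 in the same test). For polybromo, a protein with several bromodomains, 2685, 2710 and 2699 normalized counts were measured in Hakai KD, against 2863, 2879 and 2762 in control KD. The groups did not overlap here either, but the log2 fold change of -0.071 ± 0.03 (SE) had an adjusted p of 0.13 in the same test. Not all PBAP genes were on the negative side, since e(y)3, whose product SAYP joins PBAP and which is not among the 39 genes, was called higher (log2 fold change 0.15, adjusted p = 0.019 in the same test). With the length trend removed, e(y)3 stayed on the positive side but was not called (0.10, adjusted p = 0.12 in the same test).

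The other SWI/SNF subunits are shared by both forms, and none of them was called, by DESeq2 or limma-voom either. The ATPase brm had the largest difference among them, with 3456, 3549 and 3566 normalized counts in Hakai KD, against 3824, 3811 and 3625 in control KD (log2 fold change -0.091, standard error 0.032, adjusted p = 0.078 in edgeR's quasi-likelihood test, 0.042 without control KD replicate 3). The values of mor, Snr1, Bap55 and Bap60 were -0.029, -0.068, -0.058 and -0.019, and that of the HMG subunit Bap111 was 0.071, with adjusted p-values of at least 0.24. Of the 9 SWI/SNF genes, 7 had a negative log2 fold change, as did 3891 of all 7811 genes tested, and the libraries did not overlap in 7 of the 9, beside 34.9% of all genes tested. The summed normalized counts of the complex nevertheless overlapped, with 29637 to 29711 in Hakai KD and 29348 to 29937 in control KD, with osa on the positive side. Set against each other per kilobase of exon, osa made up 53.3%, 52.5% and 53.8% of the sum of osa and Bap170 in Hakai KD, against 46.9%, 48.3% and 46.8% in control KD. The difference was 5.9 percentage points (p = 0.1 in a two-sided exact permutation test, below which 3 libraries against 3 cannot go). The share of osa in the sum of osa and polybromo was 56.1% ± 0.362 in Hakai KD and 51.5% ± 0.118 in control KD (SD, n = 3 each; exact permutation p = 0.1). In the same libraries osa was higher, and Bap170 and polybromo lower, without overlap. Both shares therefore had to separate, and they hold no support beyond the values of the single genes.

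**Figure D3:**
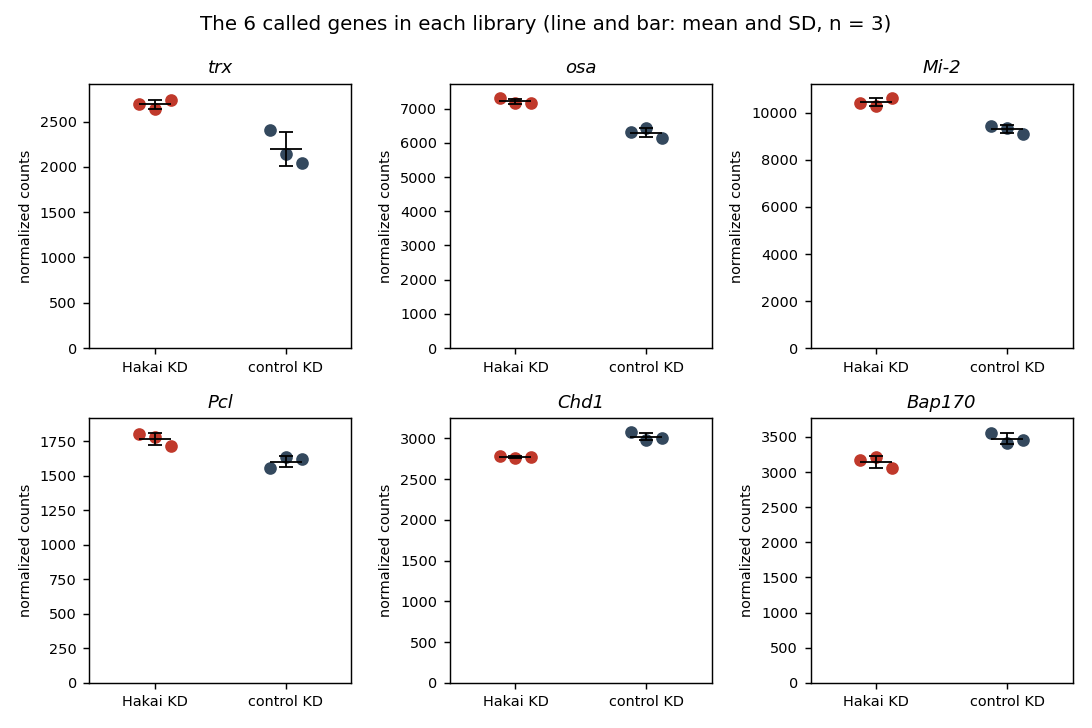
Normalized counts of the 6 called genes in each library, Hakai KD left of control KD; points are libraries, and line and bar are the mean and SD (n = 3). In each gene the groups do not overlap, as for osa with 7171 to 7306 in Hakai KD and 6150 to 6425 in control KD.

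Of the remodellers outside SWI/SNF, Mi-2 was higher and Chd1 lower in Hakai KD. Mi-2 (FBgn0262519; 3L, 19882051 to 19910215) is the ATPase of the NuRD deacetylase complex. It had 10420, 10304 and 10634 normalized counts in Hakai KD, against 9446, 9359 and 9114 in control KD, with a log2 fold change of 0.17 ± 0.031 (SE, adjusted p = 0.0045 in edgeR's quasi-likelihood test). Chd1 (FBgn0250786; 2L, 2979562 to 2987723) encodes a remodeller of actively transcribed genes, and had 2784, 2764 and 2772 normalized counts in Hakai KD, against 3076, 2986 and 3007 in control KD. The log2 fold change was -0.12 (standard error 0.028, adjusted p = 0.013 in the same test), and the Hakai KD libraries lay closer together (SD 9.86) than those of control KD (SD 47.2). Without Hakai KD replicate 2 the adjusted p of Chd1 was 0.052. Neither group overlapped the other in Mi-2 or in Chd1.

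The remodeller gene kis lay at the edge of the threshold and was chosen after its values were seen. Kismet, a CHD-family protein related to vertebrate CHD7, had 17398, 16884 and 16659 normalized counts in Hakai KD, against 16352, 15079 and 13716 in control KD. The groups did not overlap, but the control libraries were spread widely (SD 1318 at a mean of 15049), and the log2 fold change of 0.17 ± 0.054 (SE) had an adjusted p of 0.0502 in edgeR's quasi-likelihood test. It was 0.24 (adjusted p = 0.0057) without control KD replicate 1, 0.11 (adjusted p = 0.12) without control KD replicate 3 and 0.085 (adjusted p = 0.25) with the length trend removed, so that the call of this gene turned on the processing. The exons of kis cover 19229 bp, the most of the list. Iswi, the ATPase of NURF, ACF and CHRAC, had a log2 fold change of -0.055, E(bx), the large NURF subunit, -0.014, and dom, the ATPase of the Tip60 and SWR1-type complexes, 0.069, with adjusted p-values of 0.27, 0.89 and 0.28 in the same test. In E(bx) the libraries ranged widely within both groups, with 5412 to 6219 normalized counts in Hakai KD and 5592 to 6283 in control KD. The H3 lysine 4 demethylase lid had 2427, 2336 and 2229 normalized counts in Hakai KD, against 2182, 2201 and 2121 in control KD. The groups did not overlap, and its log2 fold change was 0.10 (standard error 0.038, adjusted p = 0.087 in the same test, 0.042 without Hakai KD replicate 3).

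The Polycomb group held 19 genes, of which 1, Pcl, was called (5.26%, beside 15.3% of all genes tested). An unadjusted p under 0.05 in edgeR's quasi-likelihood test was found for 36.8% of the 19, beside 29.8% of all genes tested. Pcl (FBgn0003044; 2R, 18135426 to 18139990), the Polycomb-like accessory subunit of PRC2, had 1806, 1778 and 1719 normalized counts in Hakai KD, against 1555, 1634 and 1622 in control KD. Its libraries did not overlap between the groups, with a log2 fold change of 0.14 ± 0.037 (SE, adjusted p = 0.025 in edgeR's quasi-likelihood test). The call was lost in DESeq2 (adjusted p = 0.080), with library size in place of TMM factors (0.073 in edgeR's test) and in 4 of the 6 leave-one-out fits, that is without Hakai KD replicate 1 or 2 or control KD replicate 1 or 2 (0.059 to 0.088). No subunit of the catalytic core of PRC2 passed the test. E(z), the lysine 27 methyltransferase, had 810, 927 and 868 normalized counts in Hakai KD, against 904, 844 and 861 in control KD, and a log2 fold change of -0.0018 ± 0.052 (SE). Su(z)12, the zinc-finger subunit of the core, and Caf1-55 had log2 fold changes of -0.034 and -0.0013. The WD-repeat subunit esc and its paralogue escl had 0.032 and 0.037, and the accessory subunit Jarid2 had 0.049, with adjusted p-values of at least 0.38 for these 6 genes.

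In PRC1, 0 of 7 genes were called by edgeR's quasi-likelihood test, 0 by DESeq2, 0 by limma-voom and 1 (Sce) by edgeR's likelihood ratio test, and 3 had an unadjusted p under 0.05, as did 29.8% of all genes tested. The largest difference was that of Sce (FBgn0003330; 3R), the RING protein that ubiquitylates histone H2A. It had 616, 601 and 617 normalized counts in Hakai KD, against 528, 541 and 577 in control KD. All Hakai KD libraries were above all control libraries, and the log2 fold change of 0.16 ± 0.049 (SE) had an adjusted p of 0.052 in the quasi-likelihood test. In the same test the adjusted p was 0.035 without control KD replicate 3 and 0.034 with the length trend removed. Psc, the partner of Sce in the catalytic core, had a log2 fold change of 0.13 (adjusted p = 0.12), and its paralogue Su(z)2 had -0.044 (adjusted p = 0.58, both in edgeR's quasi-likelihood test). Pc, the chromodomain subunit that reads the lysine 27 mark, had 0.085 (adjusted p = 0.37), and the SAM-domain protein Scm had 0.032 (adjusted p = 0.61). The SAM-domain paralogues ph-p and ph-d, which are neighbours on X, had 0.10 (adjusted p = 0.13) and -0.0079 (adjusted p = 0.92) in the same test. Reads that fit both paralogues may have been split or dropped in the counting, so that their single values are uncertain. The summed normalized counts of PRC1 were 6081 to 6279 in Hakai KD and 5896 to 6034 in control KD.

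PhoRC and PR-DUB held no called gene either by edgeR's quasi-likelihood test or by DESeq2, while 2 of 3 and 1 of 2 genes had an unadjusted p under 0.05 (29.8% of all genes tested), and limma-voom called 1, Sfmbt. The DNA-binding protein pho, on chromosome 4, had 1415, 1392 and 1284 normalized counts in Hakai KD, against 1208, 1242 and 1270 in control KD. The groups were separated by a narrow gap, and the log2 fold change was 0.14 (standard error 0.044, adjusted p = 0.056 in edgeR's quasi-likelihood test). In the same test the adjusted p was 0.015 without Hakai KD replicate 3 and 0.044 with the length trend removed. Its paralogue phol had -0.039 (adjusted p = 0.61). Sfmbt, the subunit that joins Pho in PhoRC and binds methylated histones, had 2011, 2027 and 1977 normalized counts in Hakai KD, against 2218, 2155 and 2104 in control KD. The groups did not overlap, and the log2 fold change was -0.11 (standard error 0.034, adjusted p = 0.0529 in the same test). The adjusted p was 0.047 without control KD replicate 3 and 0.036 with the length trend removed, again in this test. The deubiquitinase calypso had 515, 505 and 546 normalized counts in Hakai KD, against 484, 481 and 484 in control KD, a log2 fold change of 0.11 (adjusted p = 0.16), and its cofactor Asx had 0.035 (adjusted p = 0.60).

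The balance within the paralogue pairs was measured in each library as the share of one gene in the sum of both, per kilobase of exon. Psc made up 53%, 52.4% and 53% of the sum of Psc and Su(z)2 in Hakai KD, against 49.8%, 49.7% and 50% in control KD. The share of pho in the sum of pho and phol was 67.5%, 68.2% and 67.5% in Hakai KD, against 64.3%, 64.5% and 66.3% in control KD. For ph-p and ph-d, the share of ph-p was 49.6% ± 0.549 in Hakai KD and 47.6% ± 1.17 in control KD (SD, n = 3 each). In each of these pairs the groups did not overlap, and p was 0.1 in the exact permutation test (two-sided), the limit of a design of 3 against 3. The share of esc in the sum of esc and escl overlapped between the groups, with 63.9% ± 3.85 in Hakai KD and 64.2% ± 2.27 in control KD (SD, n = 3 each; exact permutation p = 0.8). With the 2 SWI/SNF shares above, 6 shares were compared, and none can pass 0.05 in this design.

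**Figure D4:**
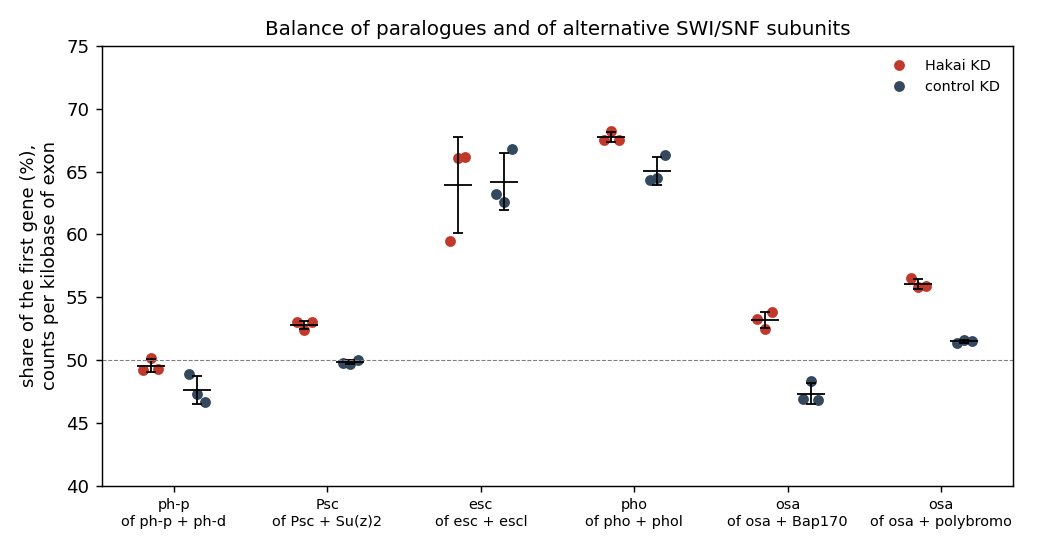
Share of the gene named on top in the sum of the pair, in percent of counts per kilobase of exon (axis cut to 40 to 75%), for 4 paralogue pairs and for osa against Bap170 or polybromo; points are libraries, line and bar the mean and SD (n = 3), Hakai KD left of control KD. The share of osa against Bap170 was 53.2% in Hakai KD and 47.3% in control KD, and the esc pair overlaps.

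The partners of these complexes were examined from further lists of named genes, read against the same background of 15.3% called. Of 10 tested Polycomb recruiters and cofactors, 3 were higher and 0 lower. The DNA-binding protein z (zeste) had 1711, 1766 and 1809 normalized counts in Hakai KD, against 1579, 1573 and 1494 in control KD, a log2 fold change of 0.19 (adjusted p = 0.0083 in edgeR's quasi-likelihood test). The BTB-domain gene psq had 5471, 5545 and 5113 normalized counts in Hakai KD, against 4765, 4636 and 4791 in control KD, a log2 fold change of 0.18 (adjusted p = 0.0059 in the same test). The call of lolal (log2 fold change 0.12, adjusted p = 0.0477) was kept in only 1 of the 6 leave-one-out fits. The median log2 fold change of this list was 0.077.

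Among 15 COMPASS and Trithorax partners, 1 was higher and 1 lower (in all 1 without Hakai KD replicate 1 or 2 or control KD replicate 1 or 2, and 4 without Hakai KD replicate 3), and both encode parts of the Mediator kinase module. The Med13 homologue skd had 3297, 3190 and 3056 normalized counts in Hakai KD, against 2443, 2472 and 2387 in control KD. Its log2 fold change of 0.39 ± 0.034 (SE, adjusted p = 3.9e-05 in edgeR's quasi-likelihood test) exceeded that of each of the 39 genes. The Med12 homologue kto had 2550, 2593 and 2548 normalized counts in Hakai KD, against 3033, 2833 and 2643 in control KD (log2 fold change -0.15, adjusted p = 0.0467 in the same test), and was called in 1 of the 6 leave-one-out fits and not in DESeq2 (adjusted p = 0.054). A wide spread stood behind tna, with 885, 1030 and 456 normalized counts in Hakai KD, against 414, 539 and 578 in control KD, which was not called and was looked up after its values were seen. Of 24 partner subunits of the remodellers, 3 were higher and 0 lower. They were e(y)3, the SAYP subunit that joins PBAP (log2 fold change 0.15, adjusted p = 0.019), tou, a large protein of ISWI-type complexes (0.16, adjusted p = 0.014), and Ing3, of the Tip60 complex (0.32, adjusted p = 0.0484, with overlapping groups). Both e(y)3 and tou were called in 4, and Ing3 in 1, of the 6 leave-one-out fits, and of the 24 genes 0 were called without Hakai KD replicate 2 and 1 without control KD replicate 2 or 3. With the length trend removed, e(y)3 and tou were no longer called (adjusted p = 0.12 and 0.18 in the same test). Among the 6 other histone lysine demethylases, 0 were called by edgeR's quasi-likelihood test, by DESeq2 or by limma-voom, and 1 (Utx) had an unadjusted p under 0.05, beside 29.8% of all genes tested. This list shares Kdm2 with the recruiters and Utx with the COMPASS and Trithorax partners, so that both genes are counted in each.

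Classical targets of Polycomb silencing were then examined, among them the Hox genes. Of 27 such genes with an identifier in the files, 25 were too low to be tested, and 4 of these had no count in any library. The highest value of any of the 25 was 13.2 normalized counts in Hakai KD and 9.32 in control KD. Their raw counts summed to 34 to 43 per library in Hakai KD and 26 to 32 in control KD. One of them, eve, chosen after its values were seen, had 13.2, 9.82 and 9.46 normalized counts in Hakai KD, against 1.92, 6.72 and 7.25 in control KD. Without eve the raw counts summed to 25 to 30 in Hakai KD and 21 to 25 in control KD. No library had more than 13 raw counts for any of the 25 genes, and small changes were not detectable at these counts. Of the 2 targets that were tested, tsh had 4637, 4598 and 4551 normalized counts in Hakai KD, against 4528, 4160 and 4120 in control KD (log2 fold change 0.11, adjusted p = 0.083 in edgeR's quasi-likelihood test, 0.0091 without control KD replicate 1), and ey had 27.4, 22.6 and 29.4 in Hakai KD, against 36.6, 34.6 and 34.2 in control KD (-0.41, adjusted p = 0.18). Neither was called by DESeq2 or limma-voom, and 1 of them had an unadjusted p under 0.05, beside 29.8% of all genes tested.

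Exon overlaps and gene length were checked for the 39 genes. The exons of 14 of them overlap another gene in the annotation, of which 2 (escl and dom) do so on the same strand. The library kit keeps strand, but the strand setting of the counting is not given in the sources used here. As a share of exon length, the largest overlap with a counted gene was that of calypso, where 10.06% (216 bp) is shared with clu on the other strand. In base pairs, the longest overlap with a counted gene was the 570 bp of trx. Sfmbt shares more, 838 bp (16.74%), with asRNA:CR46256 on the other strand. That RNA has no identifier in the count files, so that its part in the counts of Sfmbt was not tested. The gene clu had 5748 normalized counts in Hakai KD and 5517 in control KD, more than calypso itself. The exon length of the 39 genes had a median of 5006 bp, beside 2078 bp over all genes tested. With the length trend removed, the median log2 fold change of the 39 genes was 0.0041, beside 0.0014 over all genes, and 5 of the 6 called genes stayed called in each alternative that kept all libraries, the exception being Pcl. The called genes were spread over 2L, 2R, 3L and 3R, with 0 of 5 on X and 0 of 1 on chromosome 4, beside 15.3% of all genes tested. These are too few genes to compare chromosomes.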

How the data were processed

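Poly(A) RNA of S2R+ cells was sequenced from 3 Hakai KD and 3 control KD cultures, with a directional library kit per the labels. The authors deposited raw read counts per gene, 1 table per library; the submitters' processing notes name STAR 2.5.1b, featureCounts 1.5.1 and the build BDGP6. The strand setting and the handling of reads with several positions are not given in the sources used here, and both affect overlapping and paralogous genes. Symbols, coordinates and exon lengths came from the Ensembl annotation of BDGP6.54 (release 115), in which 306 of the 17559 identifiers found no match.

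Genes were kept by filterByExpr (minimum count 10, minimum total 15), scaled by TMM and tested with edgeR 4.0.16 (R 4.3.3) by the quasi-likelihood test across all 7811 genes, with Benjamini-Hochberg adjustment and a threshold of 0.05. Positive log2 fold changes are higher in Hakai KD. Standard errors (SE) were approximated as |log2 fold change|/√F. Normalized counts used TMM-scaled library sizes, and RPKM divided them by the exon union. Shares of gene pairs were compared by two-sided exact permutation tests. P-values of the count models weigh the difference between the groups against the spread between the labelled replicates. Scripts were tested on simulated data.

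The alternatives were DESeq2 1.42.0, edgeR's likelihood ratio test, limma-voom (limma 3.58.1), DESeq2 size factors, library size alone, no filter, at least 10 counts in every library, the 10 most abundant genes left out, a replicate block, removal of the trend with gene length (loess, span 0.3), the last 2 together, and leaving out each library. Genes named in full were those called and, in complexes with none, the gene with the largest absolute log2 fold change; in partner lists, those called. Library values of kis, Sfmbt, brm, polybromo, E(z), tna, tsh, ey and eve were added after they were seen. The plan named the paralogue pairs, but not the pairs of osa with Bap170 or polybromo. The members and all gene lists were chosen with earlier results of these data known. No sequences are shown.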

Additional observations from a re-analysis of the deposited data

How the results depend on the processing

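Of the 6 called genes, 5 were called in each of the 11 alternatives that kept all libraries, and 4 (trx, osa, Mi-2 and Bap170) also in all 6 leave-one-out fits. The listed genes called numbered 6 to 9 in the alternatives with all libraries and 4 to 9 over the leave-one-out fits (3 to 6 higher, 1 to 4 lower); with library size alone 5 were lower. The cause of the changes below was not tested.

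Over all genes, 1195 were called and 810 to 1296 in the alternatives with all libraries; leaving out a library gave 708 to 1014 in total (708 without control KD replicate 2, 740 without Hakai KD replicate 2), 328 to 521 higher and 380 to 509 lower. Library size alone gave 374 higher and 922 lower in place of 592 and 603, with a median over all genes of -0.035, and DESeq2 gave 395 lower. The median log2 fold change of the listed genes was -0.037 with library size alone and -0.0095 to 0.031 with a library left out, the highest without control KD replicate 1. COMPASS and Trithorax partners called were 4 by the likelihood ratio test, 1 by limma-voom, 5 without a filter and 1 to 4 with a library left out. Remodeller partners called were 1 with library size alone, with the length trend removed, and with that and the replicate block, and 0 to 3 with a library left out. Other demethylases called were 1 with library size alone and 0 to 0 with a library left out, recruiters 2 to 3, and Polycomb targets 0 to 1, the 1 without control KD replicate 1.

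The sign turned in 10 listed genes, 0 of them called. With library size alone, Scm was at -0.0036, esc at -0.0035 and Asx at -2.1e-04. With the length trend removed, E(z) was at 0.0041, Caf1-55 at 0.010 and dom at -0.0018, and with the replicate block added at 0.0031, 0.010 and -0.0025. Caf1-55 was at 4.5e-04 with at least 10 counts in every library. With a library left out, ph-d ranged from -0.022 to 0.0096, E(z) from -0.054 to 0.046, esc from -0.024 to 0.11, escl from -0.035 to 0.097, Caf1-55 from -0.0095 to 0.015, ash1 from -0.065 to 0.040 and E(bx) from -0.059 to 0.037. Without control KD replicate 1, E(z) was at 0.027, Caf1-55 at 0.015, ash1 at 0.04 and E(bx) at 0.03.

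Same-numbered libraries did not deviate together (correlations -0.0669, -0.0334 and -0.0741), and the other pairings had -0.0103 to 0.0793. No shared deviation was seen, but these correlations cannot tell whether same-numbered cultures were handled together. With the replicate block, 7 listed genes were called (5 higher, 2 lower) and 1152 over all genes (596 higher, 556 lower), with a median log2 fold change of the listed genes of -0.0012. The standard errors of 0.028 to 0.082 do not mark the smallest difference that could be called with 3 libraries in each group. Differences well above their standard error stayed uncalled in edgeR's quasi-likelihood test. Examples were Psc (0.13, standard error 0.051, adjusted p = 0.12) and kis (0.17, standard error 0.054, adjusted p = 0.0502).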
